A study of Mus musculus with 6 samples.

Results

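Libraries from sorted lung endothelial cells (EC) contained transcripts of every member of the vascular endothelial growth factor (VEGF) system examined. The sorts also held RNA of other cell types, so presence alone does not place a transcript in EC. Examined were the ligands Vegfa, Vegfb, Vegfc and Pgf, the receptor tyrosine kinases Flt1, Kdr and Flt4, and the coreceptors Nrp1 and Nrp2. The members were the rows of the deposited expression table that carried 1 of these 9 gene symbols, and every RefSeq transcript row was kept apart. This gave 20 rows of 17241, belonging to 9 of 12623 genes. Vegfa and Nrp2 had 6 rows each, Vegfb had 2 and the other 6 genes had 1. The remaining VEGF ligand, Vegfd, was listed under its older symbol Figf and was read as a pathway gene beside the members.

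The 6 libraries were made from sorted lung EC of C57BL/6N mice. Infant mice (second week after birth) gave 3 libraries, and young adult mice gave the other 3 (about 2 to 3 months old, an age at which lung EC are largely quiescent). No group carried a transgene or a treatment. By the study's methods, digested lung was sorted for CD31+ CD34+ cells that lacked PTPRC, LYVE1, LY76 and PDPN, and libraries were made from 10 ng of total RNA with a full-length, low-input kit. The labels did not say whether replicates were separate animals or pools, so p-values measure the spread between these samples only. Values are RPKM, reads per kilobase of transcript scaled to the mapped reads of the library, which allow levels of different genes to be compared per length.

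VEGF-A is the principal ligand of VEGFR2, the product of Kdr, which carries most of the mitogenic and survival signal in blood vessel EC. VEGFR1, the product of Flt1, binds VEGF-A, VEGF-B and placental growth factor (the product of Pgf) with high affinity but signals weakly, and therefore also acts as a trap. VEGF-C and VEGF-D bind VEGFR3, the product of Flt4, which is best known from lymphatic EC and sprouting vessels, while neuropilins present ligand to the receptors and also bind class 3 semaphorins.

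The Vegfa rows are transcripts of a single gene on the minus strand of chr17:46016993-46032377 (GRCm38.p6). The 3 whose exons could be read differ in short exons that decide how tightly the protein sticks to heparan sulfate. These exons are shown because they are what a row-by-row reading would have to resolve. Capitals mark codons for lysine or arginine, the basic residues. The sequences were read 5′ to 3′ from GENCODE M21 transcripts that RefSeq accessions matched, which held for 17 of the 20 member rows and 3 of the 6 Vegfa rows. The exons of NM_001110266, NM_001110267 and NM_001110268 were not analysed here. NM_001025250 contained both exons, NM_009505 only the 132-base one and NM_001025257 neither.
exon of 72 bases, chr17:46022277-46022348: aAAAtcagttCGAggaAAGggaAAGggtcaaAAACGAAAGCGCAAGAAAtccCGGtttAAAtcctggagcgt
exon of 132 bases, chr17:46020991-46021122: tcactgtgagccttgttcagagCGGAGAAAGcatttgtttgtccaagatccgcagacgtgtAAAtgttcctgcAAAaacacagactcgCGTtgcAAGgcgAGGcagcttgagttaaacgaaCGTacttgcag

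Basic codons made up 12 of the 23 whole codons of the 72-base exon (52.2%) and 9 of the 43 whole codons of the 132-base exon (20.9%). In the 4 whole coding exons that all 3 matched rows shared, 13 of 115 codons were basic (11.3%). Their coding sequences ran to 392 codons in NM_001025250, 368 in NM_009505 and 324 in NM_001025257. Most of the coding sequence was therefore common to all 3, and reads from it cannot be assigned to a single form.

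Promoter sequence of the ligands whose transcripts rose together, Vegfa and Vegfc, is shown as the 250 bases before the annotated start in RefSeq (GRCm38.p6), with capitals for the GC box letters GGGCGG on either strand.
Vegfa, chr17:46032378-46032627, minus strand: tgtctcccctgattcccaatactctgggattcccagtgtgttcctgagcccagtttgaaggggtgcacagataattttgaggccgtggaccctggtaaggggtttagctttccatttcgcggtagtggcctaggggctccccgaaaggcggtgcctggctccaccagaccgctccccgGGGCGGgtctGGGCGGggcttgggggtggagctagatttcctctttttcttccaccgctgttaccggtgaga
Vegfc, chr8:54077282-54077531, plus strand: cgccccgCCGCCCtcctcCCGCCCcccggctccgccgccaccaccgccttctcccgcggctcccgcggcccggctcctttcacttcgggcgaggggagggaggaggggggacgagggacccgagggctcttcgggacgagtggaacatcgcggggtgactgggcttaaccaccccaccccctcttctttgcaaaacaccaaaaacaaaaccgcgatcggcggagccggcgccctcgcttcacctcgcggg

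Each of these held 2 GC box matches, at -72 and -62 from the start in Vegfa and at -243 and -232 in Vegfc. The promoter of Pgf, whose transcript fell, held 2 as well, at -50 and -31. Over windows of 300 bases, which run from 250 before to 50 after a start, the letters GGGCGG were found on either strand in 9 of the 10 promoters of the family (the 9 members and Vegfd) and in 35.7% of 32851 promoters in the reference. The hypoxia response core ACGTG was in 0 of 10 family windows and in 19.6% of all promoters, and its variant GCGTG in 6 of 10 and in 32.4%. GCGTG does not overlap the GC box letters. These are letter matches in short windows only.

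The libraries differed in more than age. Infant replicate 2 stood apart from the other infant libraries: its log2 RPKM values correlated with theirs at 0.962 and 0.963 across rows, against 0.987 between infant replicates 1 and 3, and with young adult replicate 3 at 0.964. Pairs of young adult libraries correlated at 0.987 to 0.991. Globin genes took 2.53% to 18.6% of all RPKM in infant libraries and 0.223% to 0.354% in young adult ones. Each of the 4 Y-linked genes examined (Ddx3y, Eif2s3y, Uty and Kdm5d) was at 2.1 to 21.9 RPKM in the infant libraries and at 0.0 in the young adult ones, although the methods give female mice, so age and sex cannot be told apart in these libraries.

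Markers of other cell types were also unequal. Of 8 fibroblast markers, 7 were called lower in young adult libraries, with summed levels of 237.2 (infant replicate 2) to 1108.3 RPKM in infants and 7.1 to 17.5 in young adults. Likewise 7 of 8 mural markers fell, with sums of 62.4 (infant replicate 2) to 222.2 and of 11.4 to 14.6. All 7 erythroid markers fell. Alveolar epithelial markers (11 of 12 in the table, 1 higher and 3 lower) summed to 4043.6 to 5107.1 RPKM in infants whereas the young adult libraries, in the order of their replicate numbers, had sums of 1588.3, 3082.3 and 5279.7. Leukocyte markers (3 of 10 called lower, and 10 of 10 with lower fitted levels in young adults) summed to 328.4 to 528.7 and to 141.4 to 564.8. Most of each sum was Lyz2, at 275.3, 467.1 and 330.2 RPKM in infants and 134.3, 285.6 and 515.5 in young adults. Endothelial markers were high in all 6 libraries, at 2766.8 to 4094.3 and 4718.7 to 4914.4 (2 of 10 higher). Of 7 lymphatic markers 5 were in the table (Prox1 and Reln had no row), 1 called higher and 4 not called, with a median log2 fold change of -0.30. Pdpn, Mmrn1 and Ccl21a were at 0.1 to 1.7 RPKM in all libraries and had lower means in young adults, as did Flt4, which the list also holds. The marker called higher, Lyve1, was at 68.6, 171.4 and 82.7 RPKM in infants and 396.4, 307.9 and 252.9 in young adults.

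Nrp1, Kdr and Flt1 were more abundant than any ligand in every library. In infant EC the order of mean levels was Nrp1, Kdr, Flt1, Flt4, Vegfa, Pgf, Vegfc, Vegfd, Vegfb and Nrp2. The ranges of the 3 libraries overlapped between neighbours for Vegfa and Pgf, for Pgf and Vegfc and for Vegfd and Vegfb, whose order is therefore not resolved. In young adult EC the order was Nrp1, Kdr, Flt1, Vegfa, Flt4, Vegfc, Vegfd, Vegfb, Nrp2 and Pgf, and ranges overlapped for Vegfa and Flt4, for Vegfb and Nrp2 and for Nrp2 and Pgf. Pgf thus stood above Vegfc by its infant mean and last in the young adult, while Vegfa and Flt4 came to share a range.

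**Figure D1:**
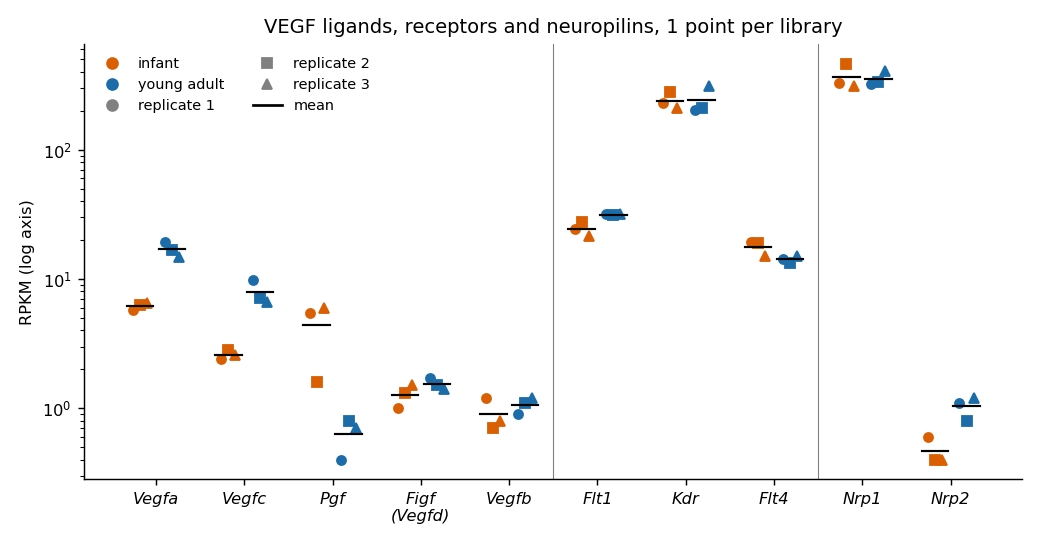
RPKM (log axis) of each VEGF ligand, receptor and neuropilin in the 3 infant (orange) and 3 young adult (blue) libraries, for the row with the highest mean of each gene, with a line at the group mean and marker shape for the replicate. Nrp1 and Kdr sit above 200 RPKM in all libraries, Vegfa and Vegfc are higher in every young adult library, and Pgf is lower in every one, with infant replicate 2 below the other infants.

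Of the ligands, Vegfa and Vegfc rose from infant to young adult EC and Pgf fell. A row was called where the adjusted p (limma on log2(RPKM + 1), Benjamini-Hochberg over 17035 rows) was under 0.05 and the log2 fold change was over 0.81 in size, the fold threshold of the study. By this rule 7 member rows were called higher (6 of Vegfa and 1 of Vegfc) and 1 lower (Pgf), while 1959 rows of the whole table were called (11.5%), 557 higher (3.27%) and 1402 lower (8.23%). By the adjusted p alone, 8 member rows were higher (Flt1 in addition) and 1 lower, while 4448 rows passed (26.1%), 1607 of them higher (9.43%). As the 6 Vegfa rows share reads, these calls are of 3 genes. With 1 row per gene, 415 of 12458 genes were called higher (3.33%) and 1014 lower (8.14%). The median log2 fold change over all rows was -0.08. All 20 member rows passed the filter of at least 1 RPKM in at least 1 library, as 17035 of 17241 rows did, but Pgf passed only through infant libraries and the 6 Nrp2 rows only through young adult ones, so these rows had to differ to some degree in order to be tested. Since the material is bulk RNA, a change in the number of cells of a type and a change in RNA per cell cannot be told apart for any of these genes.

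Vegfa, in its row with the highest mean (NM_001110268), read 5.8, 6.3 and 6.5 RPKM in the infant libraries, in the order of their replicate numbers as in all such lists here, and 19.4, 16.8 and 14.9 RPKM in the young adult libraries. Every young adult library lay above every infant one. The means were 6.20 ± 0.361 and 17.0 ± 2.26 RPKM (SD, n = 3 each), a ratio of 2.75, and the log2 fold change was 1.32 (SE 0.114, 95% interval 1.05 to 1.58, limma adjusted p = 0.0010253). The young adult library with the most Vegfa, replicate 1, had the lowest sum of alveolar epithelial markers, and 10 of the 11 such markers in the table had lower fitted levels in young adults. Of the type I markers, Ager was called lower (103.3, 102.8 and 122.2 RPKM to 24.4, 50 and 59.3) and Hopx higher (8.8, 23.1 and 14.2 RPKM to 28.5, 24.8 and 37.4), while Aqp5 was not called. The type II markers Sftpc, Sftpb, Sftpd and Sftpa1 were not called either. The part of other cell types in the Vegfa level was not tested.

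All 6 Vegfa rows gave nearly the same picture. Their log2 fold changes lay between 1.25 and 1.33, with adjusted p of 0.00089251 to 0.00104435 by limma. NM_001110267 read 5.8, 6.2 and 6.4 RPKM in infants and 19.2, 16.8 and 14.9 in young adults, and NM_001110266 read 5.7, 6.1 and 6.3 and then 18.8, 16.5 and 14.7. The 3 matched rows were lower in every library. NM_009505, which holds the 132-base exon but not the 72-base one, was at 4.9, 5.0 and 5.3 and at 15.5, 13.4 and 12.1. NM_001025257, with neither exon, was at 4.9, 5.0 and 5.3 and at 15.4, 13.2 and 11.9. NM_001025250, which adds the most basic exon, was at 4.8, 5.0 and 5.2 and at 15.3, 13.2 and 11.9. The forms that differ by both exons printed above thus never differed by more than 0.1 RPKM in a library, which is the last digit the table holds.

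Pairs of Vegfa rows were compared as ratios within a library, in which any scaling of the library cancels. Over the 15 pairs the change in log2 ratio from infant to young adult lay between -0.055 and 0.0024. Rounding the table to 1 decimal alone allows a change of 0.035 to 0.042, and 11 of the 15 pairs stayed within it. In 5 pairs the groups did not overlap, but an exact two-sided permutation test of 3 against 3 libraries cannot go below p = 0.1, and after adjustment over all 39 ratios computed no pair was below 0.433. A switch between Vegfa splice forms was therefore not detected in these values. The matched forms share most of their coding sequence, and how shared reads were counted is not given. A switch of any size may thus not have shown.

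**Figure D2:**
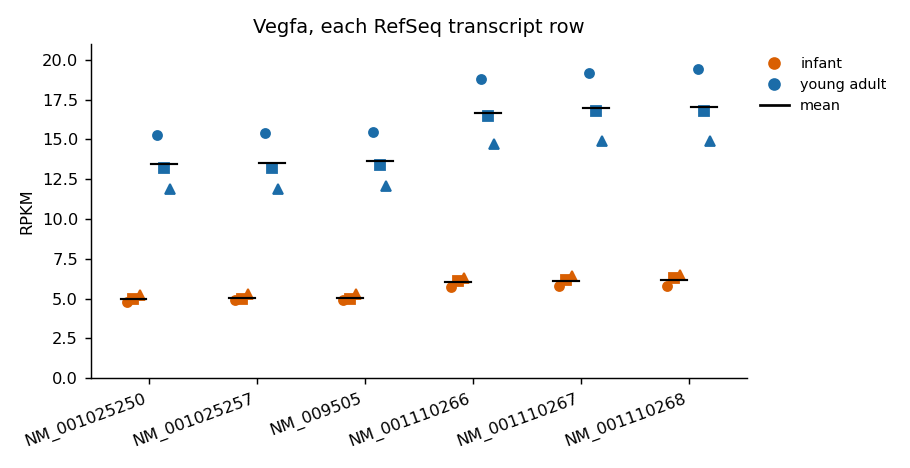
RPKM (linear axis from 0) of each of the 6 Vegfa transcript rows in the infant and young adult libraries, with a line at each group mean and marker shape for the replicate (circle 1, square 2, triangle 3). The 3 rows at the left sit at 4.8 to 5.3 RPKM in infants and 11.9 to 15.5 in young adults and the 3 at the right at 5.7 to 6.5 and 14.7 to 19.4, with the same order of libraries in every row.

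Vegfc, the VEGFR3 ligand, moved with Vegfa. It was at 2.4, 2.8 and 2.6 RPKM in infant libraries and at 9.9, 7.1 and 6.6 in young adult ones, with no overlap. The ratio of the means (2.60 ± 0.20 and 7.87 ± 1.78 RPKM, SD, n = 3 each) was 3.03, and the log2 fold change was 1.28 (SE 0.148, 95% interval 0.94 to 1.63, limma adjusted p = 0.00211). Young adult replicate 1 was again the highest library. The log2 ratio of Vegfa to Vegfc was 1.27, 1.17 and 1.32 in infants and 0.97, 1.24 and 1.17 in young adults, a difference of -0.13 with overlapping groups (exact permutation p = 0.3, adjusted 0.73125).

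Pgf, the VEGFR1-selective ligand, went the other way. Its level was 5.5, 1.6 and 6.0 RPKM in infants and 0.4, 0.8 and 0.7 in young adults. Even infant replicate 2, the lowest infant, stood above every young adult library. The means were 4.37 ± 2.41 and 0.633 ± 0.208 RPKM (SD, n = 3 each), 6.89-fold lower in young adults, with a log2 fold change of -1.60 (SE 0.356, 95% interval -2.42 to -0.77, limma adjusted p = 0.0178). Infant replicate 2 was also the infant library with the lowest fibroblast, mural and globin levels, and the part of those cells in the Pgf difference was not tested. When each library was left out in turn, Pgf stayed past the threshold only in the fit without infant replicate 2 and missed it in the other 5, with log2 fold changes of -2.05 to -1.34. The young adult values lie within a few steps of the 0.1 RPKM to which the table was rounded.

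The remaining ligands were low and did not pass the test. Vegfb read 1.2, 0.7 and 0.8 RPKM and 0.9, 1.1 and 1.2 RPKM in its higher row NM_001185164 (log2 fold change 0.13, 95% interval -0.22 to 0.48, limma adjusted p = 0.561), and NM_011697 differed from it by 0.1 RPKM in a single library. Vegfd was at 1.0, 1.3 and 1.5 RPKM and at 1.7, 1.5 and 1.4 RPKM (0.16, 95% interval -0.15 to 0.48, limma adjusted p = 0.392). Neither interval reached the log2 fold change of Vegfa or of Vegfc, but the added 1 RPKM shrinks changes of such low rows more. Without that addition, the ratios of the means were 1.19 for Vegfb NM_001185164 and 1.21 for Vegfd.

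Summed over the 5 ligands, transcript levels were 15.9, 12.7 and 17.4 RPKM in infants and 32.3, 27.3 and 24.8 RPKM in young adults. The make-up of this sum, computed after the single values had been seen, differed between the ages. Vegfa held 36.5%, 49.6% and 37.4% of it in infants and 60.1%, 61.5% and 60.1% in young adults. Vegfc held 15.1%, 22.0% and 14.9% and then 30.7%, 26.0% and 26.6%. Pgf dropped from 34.6%, 12.6% and 34.5% to 1.24%, 2.93% and 2.82%. The log2 ratio of Vegfa to Pgf was 0.08, 1.98 and 0.12 in infants and 5.60, 4.39 and 4.41 in young adults. In geometric means that is 1.65 and 27.9 Vegfa transcripts per Pgf transcript, with no overlap (exact permutation p = 0.1, the smallest possible, adjusted 0.433). Each gene alone already separated the ages, in opposite directions, so the ratio had to separate and its test adds no support. The young adult ratio rests on Pgf levels of 0.4 to 0.8 RPKM, near the rounding step. The difference in log2 ratio was 4.08, and 2.91 with a pseudocount of 1. Over the 8 ratios of different genes, 4 had groups that did not overlap, and 7461 of 17035 single rows (43.8%) did not overlap either.

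**Figure D3:**
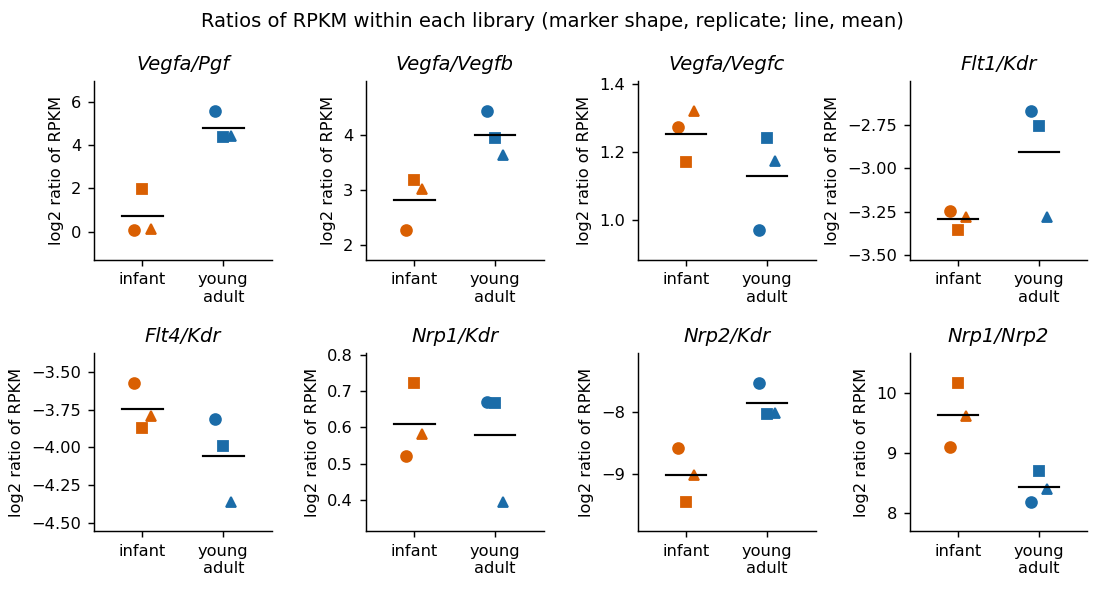
Log2 ratio of RPKM of pairs of members within each library, for infant (orange) and young adult (blue) libraries, with a line at the group mean and marker shape for the replicate; the vertical scale differs between panels and does not start at 0. The groups are apart for Vegfa/Pgf, Vegfa/Vegfb, Nrp2/Kdr and Nrp1/Nrp2 and overlap for the other 4 pairs.

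The receptor tyrosine kinases all stayed under the fold threshold. Kdr was at 229.5, 280.2 and 208.8 RPKM in infants and at 202.6, 210.2 and 309.4 RPKM in young adults, and the groups overlapped widely. Its log2 fold change was -0.01 (SE 0.199, 95% interval -0.47 to 0.45, limma adjusted p = 0.98). The highest young adult library, replicate 3, was also the one with the lowest Vegfa and Vegfc and the highest alveolar epithelial sum.

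Flt1, the high-affinity receptor and trap, was at 24.2, 27.4 and 21.5 RPKM in infants and at 31.8, 31.0 and 31.8 RPKM in young adults. No young adult library fell below 31.0, and the means were 24.4 ± 2.95 and 31.5 ± 0.462 RPKM (SD, n = 3 each), a ratio of 1.29. The log2 fold change of 0.37 (SE 0.107, 95% interval 0.12 to 0.61) had a limma adjusted p of 0.0415 but stayed under the fold threshold. Over the 19 fits made for this row its adjusted p ran from 0.00916 to 0.121 and was under 0.05 in 9. Flt4 was at 19.3, 19.1 and 15.1 RPKM and at 14.4, 13.2 and 15.1 RPKM, which touch at 15.1, with a log2 fold change of -0.30 (SE 0.118, 95% interval -0.57 to -0.03, limma adjusted p = 0.0984).

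Kdr made up 84.1%, 85.8% and 85.1% of the summed receptor kinases in infants and 81.4%, 82.6% and 86.8% in young adults. Flt1 held 8.86%, 8.39% and 8.76% and then 12.8%, 12.2% and 8.93%, and Flt4 held 7.07%, 5.85% and 6.15% and then 5.79%, 5.19% and 4.24%. The log2 ratio of Flt1 to Kdr rose by 0.39 on average, but young adult replicate 3 lay inside the infant range at -3.28 (exact permutation p = 0.3, adjusted 0.73125). That of Flt4 to Kdr changed by -0.31 (exact permutation p = 0.2).

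**Figure D4:**
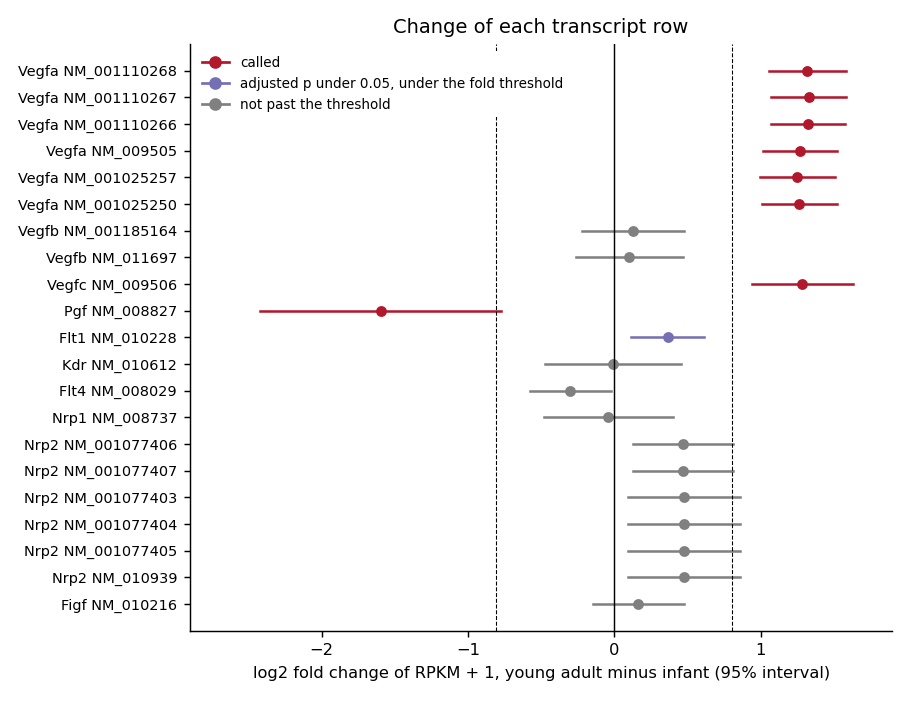
Log2 fold change of RPKM + 1 (young adult minus infant) of the 20 member rows and of Figf (Vegfd), points with 95% intervals from limma; dashed lines mark a log2 fold change of 0.81 in size. The 6 Vegfa rows and Vegfc lie between 1.25 and 1.33, Pgf at -1.60 with the widest interval, Flt1 passes the adjusted p but not the fold threshold, and the other rows pass neither.

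The neuropilins differed widely in level. Nrp1, the coreceptor of VEGFR2 in blood vessel EC, was at 329.4, 462.6 and 312.7 RPKM in infants and at 322.3, 334.0 and 407.0 RPKM in young adults (log2 fold change -0.04, 95% interval -0.48 to 0.40, limma adjusted p = 0.894). It held 99.7% to 99.9% of neuropilin RPKM in each library. The log2 ratio of Nrp1 to Kdr differed by -0.03 between the ages (exact permutation p = 0.8), and both genes were highest in infant replicate 2 among infants and in replicate 3 among young adults.

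Nrp2, the coreceptor associated with VEGFR3 and with venous and lymphatic EC, was near the floor of the table. Its rows NM_001077406 and NM_001077407 each read 0.6, 0.4 and 0.4 RPKM in infants and 1.1, 0.8 and 1.2 in young adults, and the rows NM_010939, NM_001077403, NM_001077404 and NM_001077405 each read 0.6, 0.3 and 0.4 and then 1.2, 0.7 and 1.1. Young adult libraries were above infant ones in all 6 rows. These hold nearly the same values and passed the filter only through young adult libraries. Over all rows tested, 43.8% had groups that did not overlap. The log2 fold changes were 0.47 (95% interval 0.12 to 0.81, limma adjusted p = 0.0522) for the first rows and 0.48 (95% interval 0.10 to 0.86, limma adjusted p = 0.0675) for the others, so no row was called. The 15 pairs of Nrp2 rows differed by no more than rounding allows, and the isoforms, of 901 to 931 codons, could not be told apart. Relative to Kdr, the log2 level of Nrp2 differed by 1.16 with no overlap (exact permutation p = 0.1, adjusted 0.433). That ratio was taken without a pseudocount, and with a pseudocount of 1, as in the fold changes above, the difference was 0.48.

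Among neuropilin partners, Sema3g, a class 3 semaphorin of arterial and capillary EC, rose from 10.6, 10.2 and 8.5 RPKM to 21.5, 30.2 and 18.4 (log2 fold change 1.15, limma adjusted p = 0.00529). It was the only one called of 9 tested (2 higher and 2 lower at an unadjusted p under 0.05 by limma). Sema3c rose from 84.6, 80.4 and 81.3 RPKM to 142.3, 147.6 and 105.2 (0.66, limma adjusted p = 0.0173), under the fold threshold. Sema3a fell from 2.2, 1.6 and 1.8 RPKM to 0.6, 0.9 and 0.9 (-0.67, limma adjusted p = 0.0153), also under it. For this list and those below, the share of all genes called was 3.33% higher and 8.14% lower. The median log2 fold change of this list was 0.16, beside -0.08 over all rows, and depended on single libraries, at 0.31 without young adult replicate 1, at 0.042 when young adult replicate 3 was left out and at 0.073 when infant replicate 3 was.

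Of 20 modulators of VEGF receptors, 1 was called higher and 1 lower (3 higher and 5 lower at an unadjusted p under 0.05 by limma). Their median was 0.11, and 0.0073 without infant replicate 1. Ptprb, the endothelial phosphatase VE-PTP that restrains VEGFR2 and TIE2, rose from 43.5, 57.2 and 38.8 RPKM to 126.4, 109.5 and 84.9 (1.18, limma adjusted p = 0.00594). Cd63, a tetraspanin of late endosomes made by most cell types, fell from 66.2, 28.3 and 77.0 RPKM to 10.2, 14.5 and 16 (-1.90, limma adjusted p = 0.0099), with infant replicate 2 again the lowest infant. Cdh5, the VE-cadherin that complexes with VEGFR2, had a log2 fold change of 0.28 and did not pass (limma adjusted p = 0.252). Of 4 genes tested for the processing of VEGF-C and VEGF-D, the proprotein convertase Pcsk5 fell from 13.7, 8.3 and 11.5 RPKM to 4.5, 5.5 and 4.1 (-1.08, limma adjusted p = 0.00666), and no other was called. At an unadjusted p under 0.05 by limma, 2 of the 4 were higher and 1 lower.

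Of 46 signal transduction genes downstream of the receptors, 2 were called higher and 1 lower (median -0.12), beside 3.33% and 8.14% of all genes. At an unadjusted p under 0.05 by limma, 6 of the list were higher and 11 lower. Hspb1, the small heat shock protein that p38 signalling phosphorylates, rose from 4.6, 6.0 and 3.6 RPKM to 9.5, 15.9 and 21.8 (1.496, limma adjusted p = 0.010). Pla2g4a, cytosolic phospholipase A2, rose from 2.6, 3.4 and 2.8 RPKM to 6.2, 5.9 and 6.0 (0.84, limma adjusted p = 0.00302). Pik3r2, a regulatory subunit of PI3 kinase, fell from 4.5, 2.4 and 2.2 RPKM to 0.8, 1.0 and 1.3 (-0.95, limma adjusted p = 0.0195). Plcg1, the phospholipase recruited by activated VEGFR2, changed by 0.22 (limma adjusted p = 0.134) and Nos3, the endothelial nitric oxide synthase, by 0.01 (limma adjusted p = 0.987). Neither of these passed.

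Genes that VEGF is known to induce in EC showed the lowest median of the lists. By limma, 0 of 18 were called higher and 6 lower (2 higher and 10 lower at an unadjusted p under 0.05), and their median log2 fold change was -0.56 (-0.29 with a pseudocount of 5 and -0.33 with quantile normalization). Among those that fell were 4 transcription factors of the immediate early kind, which many other stimuli also induce. Nr4a1 was at 204.8, 74.1 and 180.7 RPKM in infants and at 46.6, 25.8 and 22.5 in young adults (-2.18, limma adjusted p = 0.0102). Egr1 was at 140.2, 78.6 and 111.6 RPKM and at 46.8, 19.4 and 29.8 (-1.80, limma adjusted p = 0.00865). In both, infant replicate 2 was the lowest infant library and still above the young adult ones. Egr2 fell from 11.2, 5.0 and 8.4 RPKM to 1.8, 1.5 and 1.6 (-1.747, limma adjusted p = 0.00342). Nr4a2 fell from 10.3, 2.5 and 7.7 RPKM to 1.7, 1.0 and 1.1 (-1.64, limma adjusted p = 0.0219). Here too infant replicate 2 was the lowest infant library, as it was for fibroblast, mural and globin levels. The part of other cell types in the changes of this list was not tested.

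Cxcr4, the chemokine receptor of tip cells, fell from 8.0, 7.6 and 8.6 RPKM to 1.8, 1.7 and 1.6 (-1.747, limma adjusted p = 0.000249), with hardly any spread within the ages. Plat, tissue plasminogen activator, was at 88.0, 43.6 and 85.1 RPKM and at 41.3, 40.4 and 34.4 (-0.82, limma adjusted p = 0.0497) and passed in only 1 of the 6 fits that left out a library. Angpt2, an antagonist of TIE2 made by sprouting EC, was at 16.2, 25.6 and 17.7 RPKM and at 32.8, 29.0 and 28.1 (0.60, limma adjusted p = 0.0366), under the fold threshold. Esm1, another tip cell gene, was at 5.0, 22.6 and 5.8 RPKM in infants and at 11.6, 15.2 and 8.0 in young adults (0.31, limma adjusted p = 0.673), so that infant replicate 2 alone was above all young adults. Rcan1, the calcineurin target (0.24, limma adjusted p = 0.368), and the Notch ligand Dll4 (0.16, limma adjusted p = 0.425) did not pass.

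Among 13 regulators of Vegfa transcription or mRNA stability, 2 fell and 0 rose by limma (2 higher and 5 lower at an unadjusted p under 0.05), with a median of -0.18. Both that fell encode proteins that bind AU-rich elements and speed the decay of mRNAs such as that of Vegfa. Zfp36 was at 285.0, 208.4 and 240.3 RPKM in infants and at 154.9, 121.1 and 125.6 in young adults (-0.86, limma adjusted p = 0.0100). Zfp36l1 was at 27.7, 15.5 and 25.7 RPKM and at 12.7, 8.7 and 11.4 (-0.98, limma adjusted p = 0.0191). In both, infant replicate 2 was again the lowest infant library. Any part of these genes in the Vegfa level was not tested. The hypoxia-inducible factors were not called. Hif1a was at 9.2, 8.8 and 9.2 RPKM and at 6.7, 6.4 and 5.9 (-0.46, limma adjusted p = 0.0120), under the fold threshold, and Epas1, the HIF-2α gene abundant in EC, was at 154.0, 214.8 and 130.5 RPKM and at 231.7, 246.7 and 200.4 (0.47, limma adjusted p = 0.113).

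Several of these list calls depended on single libraries. Without infant replicate 2, the counts over the 6 lists other than the family itself were 5 higher and 14 lower, against 4 and 11 with all libraries, and Esm1 was then called higher. The number called lower was 6 when infant replicate 1 was left out. It was 7 after leaving out young adult replicate 1 and 5 after leaving out young adult replicate 2. Zfp36l1 and Nr4a2 lost their calls in 5 of the 6 such fits, Pik3r2 in 3, Zfp36 in 2, and Nr4a1, Hspb1 and Pla2g4a in 1.

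**Figure D5:**
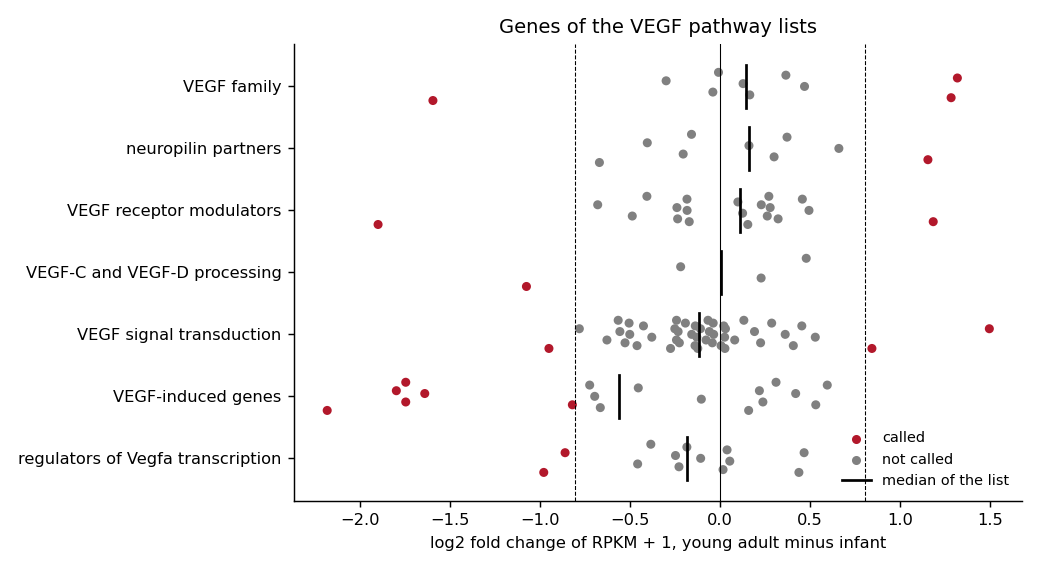
Log2 fold change of RPKM + 1 (young adult minus infant) of each gene of the 7 VEGF pathway lists, 1 point per gene, red where called, with a bar at the median of the list and dashed lines at the fold threshold (0.81 in size). The VEGF-induced genes have the lowest median, -0.56, with 6 called lower, and the medians of the other lists lie between -0.18 and 0.16.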

How the data were processed

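RNA-seq of sorted lung EC was analysed in 6 libraries (3 infant, 3 young adult, grouped by title). Per the labels and the study's methods, the authors sequenced 100-base paired-end reads, aligned them to mm10 with STAR, annotated genes with RefSeq and tested counts with DESeq2, versions not given in the sources used here. They deposited RPKM, 1 row per RefSeq transcript, rounded to 1 decimal. How RPKM was computed from reads shared by isoforms is not given in the sources used here. Read depth is unknown, so no counting interval was given.

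Rows with at least 1 RPKM in at least 1 library (the study's filter) were taken as log2(RPKM + 1) into limma (version 3.58.1, R version 4.3.3). The model held the age group alone and used an intensity trend, and p-values were adjusted by Benjamini-Hochberg over all rows. This replaced a count test. Fold changes on this scale understate the change of low rows. Calls needed adjusted p under 0.05 and a log2 fold change over 0.81 in size. Ratios were tested by exact two-sided permutation (Python code with numpy 2.4.6). Of a gene with several rows, the row with the highest mean stood for it in lists and in ratios of different genes. The fit was tested on simulated data. The members, lists and tests were chosen with earlier results of these data known. Named genes were all member rows, the called genes of each list (at most 6), 10 further pathway genes, and for 5 members the 3 genes most alike, of which 1 is not reported here. Alternatives covered the pseudocount, the filter, the scaling, variance options, a replicate block, 1 row per gene, the fold threshold and each library left out.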

Additional observations from a re-analysis of the deposited data

How the results depend on the processing

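The Vegfa rows and Vegfc had an adjusted p (limma, Benjamini-Hochberg) under 0.05 in all 19 fits made for them, of 0.000142 to 0.00842 and 0.000424 to 0.0122, and 7 member rows were called higher in each fit that left out 1 library. With a pseudocount of 5 in place of 1, Vegfc (log2 fold change 0.75, adjusted p = 0.00406) and Pgf (-0.70, adjusted p = 0.0307) fell under the fold threshold, 830 rows were called, 339 higher and 491 lower, 0 of them members called lower, and 7 genes of the 6 pathway lists other than the family (list genes) were lower. With a pseudocount of 0.1, Nrp2 NM_001077406 was called (1.001, adjusted p = 0.0489). Quantile normalization moved the median of all rows from -0.08 to 0.04, left 858 rows called lower, and called 13 member rows higher, with Nrp2 NM_001077406 at 0.86 (adjusted p = 0.00724). Scaling without globin genes put that median at -0.18. With 1 row per gene (highest or mean) 2 members were higher. Without the fold threshold 4448 rows were called, 1607 higher and 2841 lower, with 11 list genes higher and 24 lower, and limma's test against the fold threshold itself called 208 rows, 60 higher and 148 lower, 0 member rows in either direction, and 0 list genes higher and 1 lower, while 9 member rows had an adjusted p under 0.05 in the test against no change.

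Over all settings, list medians ran from 0.051 to 0.41 for the family, 0.042 to 0.31 for neuropilin partners, -0.010 (without globin genes) to 0.17 for receptor modulators and -0.66 to -0.29 for VEGF-induced genes. Values near 0 changed sign: Nrp1 was at 0.053 with array weights, Kdr at 0.015 with equal sums, 0.00598 with equal upper quartiles and 0.036 with array weights, and Nos3 at -0.0028 with a pseudocount of 5, -0.095 without globin genes and -0.020 with array weights. The difference in the Vegfa to Vegfc ratio was 0.035 with a pseudocount of 1. Leaving out each library gave 1141 to 2590 called rows, 413 to 770 higher and 709 to 1820 lower, 0 to 1 member rows lower, 3 to 5 list genes higher and 5 to 14 lower. Log2 fold changes ran from -2.05 to -1.34 for Pgf (adjusted p = 3.11e-05 to 0.0712 over all fits), -0.15 to 0.14 for Nrp1, -0.20 to 0.11 for Kdr, -0.049 to 0.94 for Esm1 and -0.13 to 0.20 for Nos3, and ratio differences from -0.077 to 0.060 for Nrp1/Kdr, -0.0071 to 0.0078 for NM_009505/NM_001025250, -0.0044 to 0.0010 for NM_001110266/NM_001110267 and -0.14 to 0.064 for the Nrp2 row pairs. Called rows were 1275 without infant replicate 1 (862 lower), 1141 without young adult replicate 1 (709 lower) and 1203 without young adult replicate 2 (784 lower), and 871 were lower without infant replicate 3. The causes were not tested. Replicate numbers did not pair the libraries (correlations of deviations 0.0186, -0.108 and -0.0204), and with the replicate block 1892 rows were called, 553 higher and 1339 lower, 7 member rows higher and 1 lower, and Plat was lost (adjusted p = 0.0644). Unknown depth limits what can be said of Nrp2, Vegfb, Vegfd and adult Pgf, all near the rounding step.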

Other observations

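The genes whose pattern over the 6 libraries was most like that of a member, among 6978 genes with a mean of at least 5 RPKM, differed between the ligands that rose and the one that fell. Likeness was the root mean square difference of log2(RPKM + 1), each gene centred on its own mean. It is a description over 6 libraries that mostly follows the difference between the ages. Genes near a rising and near a falling ligand therefore had to differ, and a library pattern shared with a member follows from the choice. Nearest to Vegfa were Nsg1 (0.0987), Samd12 (0.103) and Ackr3 (0.109), the atypical chemokine receptor that scavenges CXCL12. Ackr3 went from 20.4, 17.8 and 21.7 RPKM in infants to 62.7, 47.1 and 43.5 in young adults. Samd12 (0.107) and Ackr3 (0.117) were also the nearest to Vegfc, followed by Il6st (0.15), the shared receptor subunit of interleukin-6 cytokines. Nearest to Pgf were Gstt1 (0.0985), Ldlrad3 (0.115) and Cd302 (0.14). In each of these, as in Pgf, infant replicate 2 was the lowest infant library, with Gstt1 at 29.0, 8.7 and 28.7 RPKM in infants and 4.7, 6.5 and 6.6 in young adults. Among the nearest to Flt1 were Fcho2 (0.0378) and Rnf6 (0.0422), and nearest to Kdr were Zdhhc18 (0.056), Fnbp1 (0.0626) and Pno1 (0.0681).

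Markers of EC subtypes were unequal between the ages as well. Of 5 venous markers 3 were called higher in young adults and 1 lower, with sums of 65.0 to 76.7 RPKM in infants and 176.8 to 264.3 in young adults. Of 6 general capillary markers 3 were higher, Ptprb among them, with sums of 440.9 to 630.1 and 858.0 to 1132.3. Of 6 aerocyte markers 0 were called by limma (0 higher and 2 lower at an unadjusted p under 0.05), and their sums overlapped, at 1281.1 to 2240.1 and 1498.9 to 2174.6. Of 7 arterial markers 1 was lower, with sums of 233.6 to 266.9 and 229.5 to 309.9. The part of EC subtypes in the Vegfa and Vegfc levels was not tested.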
